A study of Mus musculus with 4 samples.

Results

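The genes described here encode the MAF, BACH and NRF2 factors and their regulator KEAP1: Maf, Maff, Mafg, Mafk, Bach1, Bach2, Nfe2l2 and Keap1. They were chosen by name, as 8 of the 21900 protein-coding genes of the mouse annotation. Accessible chromatin had been profiled by ATAC-seq, in which a transposase cuts and tags open DNA, and the deposited data are 1 list of peaks per library. Peaks of the 4 lists were merged into regions wherever they overlapped by at least 1 bp, and a region belonged to a gene when that gene was the nearest protein-coding gene and lay within 50 kb. This gave 84 of 91858 regions, and 80467 of the 91858 lay within 50 kb of some protein-coding gene. Coordinates are those of mm10.

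The Ezh2 knockout (KO) libraries came from macrophages grown from the marrow of Ezh2fl/fl;LysM-Cre+/- mice, in which Cre is driven by a gene active in myeloid cells and acts on floxed Ezh2. The WT libraries came from macrophages of littermate control mice, whose alleles are labelled only as WT. Both groups were cultured for 7 to 10 days with medium from L929 cells, which supplies macrophage growth factor. Hepa1-6 conditioned medium, from a murine hepatoma line, was then given to both for 24 hours, so no library here lacks that exposure. There were 2 libraries per genotype. The sources used here give no age for the mice. No label ties a replicate to its own mouse or culture, so every SD and p-value measures the spread between these libraries, which may be technical. A two-sided exact permutation test over 4 libraries cannot give a p below 0.333, so no single difference below can pass 0.05.

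MAF proteins are basic leucine zipper factors that bind DNA as pairs. The small members MAFF, MAFG and MAFK lack an activation domain and act through their partners: with NRF2 (the product of Nfe2l2) they activate antioxidant and detoxification genes, and with BACH1 or BACH2 they repress many of the same genes until haem or oxidants release the repressor. KEAP1 presents NRF2 to a CUL3 ubiquitin ligase and so keeps its level low in unstressed cells, while the large factor c-MAF (from Maf) carries its own activation domain and promotes Il10 and other genes of anti-inflammatory macrophages.

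The lists held 67055 and 71111 peaks in KO and 69210 and 72887 in WT, covering 26.7 and 29.9 Mb in KO and 27.7 and 29.8 Mb in WT. The files give no read counts, so sequencing depth is unknown, and a region absent from a list cannot be told apart from one too shallowly sequenced to be called. The region at the boundary of Ezh2 itself, chr6:47594084-47595538, was called in all 4 libraries with peak folds of 6.24 and 5.62 in KO and 5.52 and 5.15 in WT. A peak list does not show whether the floxed exons were lost, so this does not check the labels. Of 8 macrophage markers, 8 had a region within 1 kb of a gene boundary (a gene-end region) in all 4 libraries, against 6 of 28 markers of other cell types and 54.7% of all 21900 protein-coding genes. The highest fold in a list was 45.5 and 25.2 in KO replicates 1 and 2 and 45.4 and 25.5 in WT replicates 1 and 2, so libraries with the same number were alike in this respect whatever their genotype.

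The promoters of 7 of the 8 genes were matched in RefSeq (GRCm38.p6), as windows from 250 bases before to 50 after an annotated start. There were 9 windows in all, since Maff has 3. Those of Nfe2l2, Mafk, Mafg and Bach1 and of the first 2 Maff starts are printed to show the letters of the factors' own binding motifs beside the peaks that cover them. Capitals mark TGACNNNGC, the core of the antioxidant response element that NRF2 and small MAF pairs bind, and TGCTGA, one arm of the MAF recognition element, each searched on both strands. These motifs did not overlap each other in the windows printed.
Nfe2l2, chr2:75704614-75704913, minus strand: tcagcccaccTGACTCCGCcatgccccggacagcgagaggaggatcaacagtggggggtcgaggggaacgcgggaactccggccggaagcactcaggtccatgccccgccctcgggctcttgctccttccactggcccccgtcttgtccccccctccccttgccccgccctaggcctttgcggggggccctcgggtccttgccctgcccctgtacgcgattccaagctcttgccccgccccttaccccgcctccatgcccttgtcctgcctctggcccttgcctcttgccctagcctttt
Mafk, chr5:139791286-139791585, plus strand: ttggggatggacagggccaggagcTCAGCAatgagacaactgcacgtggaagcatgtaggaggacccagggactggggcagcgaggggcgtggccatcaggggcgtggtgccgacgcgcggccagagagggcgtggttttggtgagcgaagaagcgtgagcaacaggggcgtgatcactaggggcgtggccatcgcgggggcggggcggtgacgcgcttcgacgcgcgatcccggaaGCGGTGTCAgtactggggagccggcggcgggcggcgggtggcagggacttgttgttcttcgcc
Mafg, chr11:120633498-120633797, minus strand: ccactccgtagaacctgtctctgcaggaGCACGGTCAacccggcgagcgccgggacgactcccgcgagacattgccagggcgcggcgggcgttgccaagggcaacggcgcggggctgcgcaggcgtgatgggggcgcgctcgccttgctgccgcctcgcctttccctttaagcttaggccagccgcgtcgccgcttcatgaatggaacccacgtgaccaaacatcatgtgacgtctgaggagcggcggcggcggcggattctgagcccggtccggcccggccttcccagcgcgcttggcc
Bach1, chr16:87698704-87699003, plus strand: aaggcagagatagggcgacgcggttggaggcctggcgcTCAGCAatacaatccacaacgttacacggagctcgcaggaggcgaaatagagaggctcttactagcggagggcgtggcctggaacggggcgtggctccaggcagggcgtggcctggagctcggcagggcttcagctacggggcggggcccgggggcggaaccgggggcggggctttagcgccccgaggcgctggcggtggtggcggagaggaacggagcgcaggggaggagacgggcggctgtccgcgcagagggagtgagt
Maff, chr15:79346371-79346670, plus strand, first start: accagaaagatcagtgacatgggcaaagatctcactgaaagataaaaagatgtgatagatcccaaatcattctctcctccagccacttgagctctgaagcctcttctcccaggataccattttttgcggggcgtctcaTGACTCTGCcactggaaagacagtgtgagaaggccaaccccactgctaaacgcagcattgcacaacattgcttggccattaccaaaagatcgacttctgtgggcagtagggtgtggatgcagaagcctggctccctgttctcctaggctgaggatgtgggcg
Maff, chr15:79347270-79347569, plus strand, second start: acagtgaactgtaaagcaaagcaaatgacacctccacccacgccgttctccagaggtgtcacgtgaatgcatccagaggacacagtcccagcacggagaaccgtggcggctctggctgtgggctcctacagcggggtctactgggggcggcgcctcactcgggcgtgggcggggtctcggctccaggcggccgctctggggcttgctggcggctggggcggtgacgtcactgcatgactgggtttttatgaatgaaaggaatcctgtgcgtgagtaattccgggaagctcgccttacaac

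TGACNNNGC stood in 4 of the 9 windows: it began at base 11 of the Nfe2l2 window, base 29 of Mafg, base 238 of Mafk and base 139 of the first Maff window. It stood in 12.4% of 32851 promoters of the same length. TGCTGA stood in the Mafk window, at base 25, and in the Bach1 window, at base 39, and in 19.5% of all promoters. TGAGTCA, the AP-1 site, and GAGGAAGT, a site for PU.1 and related ETS factors, stood in 0 of the 9 windows and in 5.20% and 3.20% of all promoters. A match describes the letters and does not show binding.

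Peaks covered these windows to very different degrees. The Nfe2l2 and Mafg windows were covered over all 300 bases in each of the 4 libraries. The Mafk window had 300 and 300 covered bases in KO and 300 and 293 in WT, and that of Bach1 had 295 and 294 in KO and 283 and 293 in WT. The first Maff start had 0 covered bases in every library. The second had 288 and 265 in KO and 210 and 108 in WT, so both KO libraries covered more of it than either WT library. The third Maff start, further into the gene, had 300 and 288 in KO and 285 and 300 in WT. The Keap1 window was barely reached, with 97 and 15 bases in KO and 0 and 64 in WT, and its peak lies mostly on the gene side of the start. The only Bach2 window of the RefSeq table, inside the gene at chr4:32417185-32417484, had 0 covered bases in every library.

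Each of the 8 genes had at least 1 gene-end region in every library, beside 54.7% of all protein-coding genes. Of the 84 regions, 52 lay in the genes and 32 outside them. The 4 libraries all called 56 of the 84, a share of 66.7% beside 59.5% over all regions near genes. A single library called 13, and 2 or 3 libraries called the other 15. The regions called in all 4 had a median span of 567 bp, against 519 bp for all such regions near genes. Width and percentile are used below for each library. The width is the number of bases its peaks cover in a region. The percentile is that of the strongest peak's fold within the library's own list, in which the highest fold stands near 100. The fold is the authors' own value, an average over the peak, so a wider peak averages over more bases. Lists of different lengths were not compared by rank, and percentiles from them show order within a list, not a change in signal. In such bulk libraries, a site open in more cells and a site more often open in each cell cannot be told apart.

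**Figure D1:**
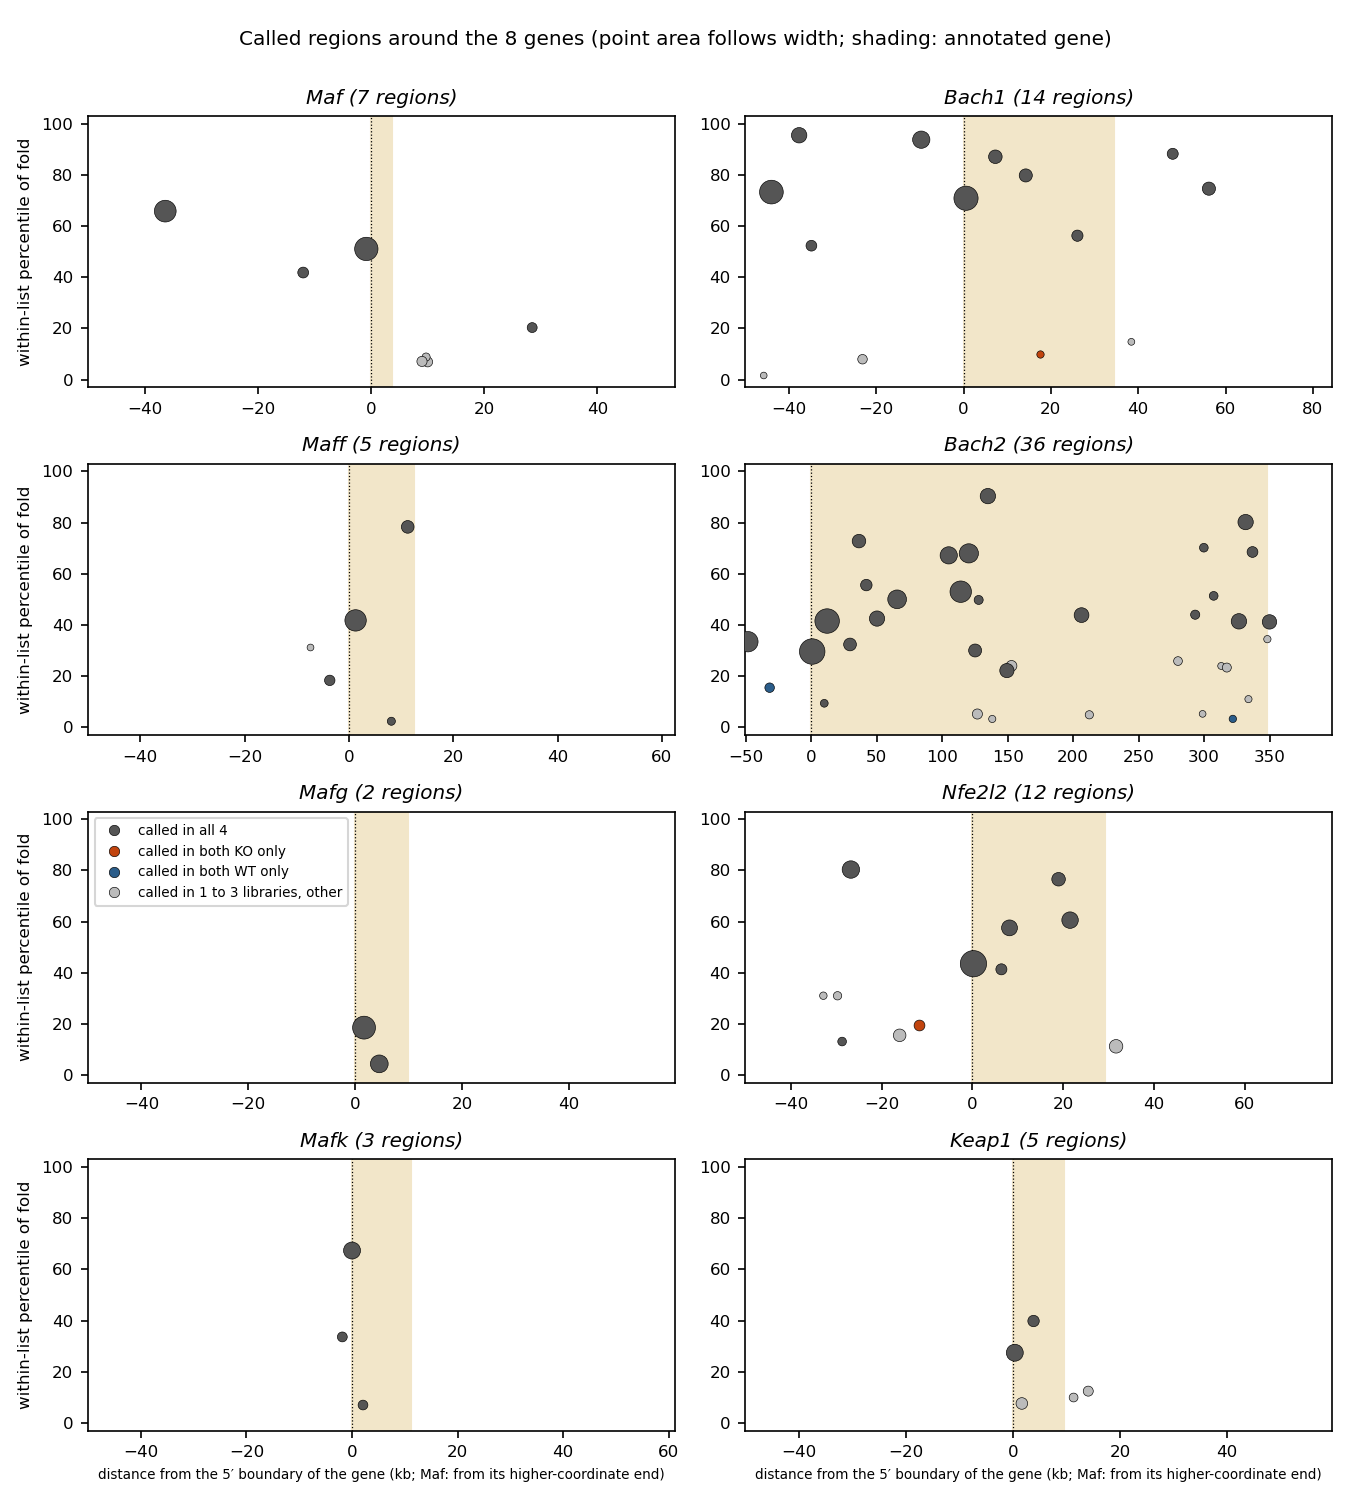
Each point is 1 merged region of the gene named above the panel, placed by the distance of its centre from the gene's 5′ boundary (kb, horizontal axis; for Maf, from the higher-coordinate boundary) and by its mean within-list percentile of fold over the libraries that called it (vertical axis). Point area follows width, shading marks the annotated gene, and colour marks which libraries called the region: Bach2 holds 36 regions spread through its long gene, while Mafg holds 2.

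Nfe2l2, the NRF2 gene, had 12 regions, and 7 of them were shared by all 4 libraries. Its start region, chr2:75703484-75705390, was the widest of the gene and stood at the 99.5th percentile of width among shared regions near genes. Its width was 1901 and 1901 bp in KO and 1898 and 1861 bp in WT, with folds of 4.23 and 4.38 in KO and 4.25 and 3.97 in WT. The KO widths both exceeded the WT widths, by as little as 3 bp, and the folds overlapped. In rank of fold, this wide start peak stood 38835th and 36080th in the KO lists and 39561st and 43742nd in the WT lists, near the middle of each. The strongest region of the gene lay outside it, at chr2:75730995-75731834, with fold percentiles of 80.7 and 81.0 in KO and 75.9 and 83.8 in WT. The covered bases over all regions of Nfe2l2 were 5610 and 5096 in KO and 5166 and 5216 in WT, with means of 5353 ± 363 in KO and 5191 ± 35.4 in WT (SD, n = 2 each, exact permutation p = 1).

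A region 11598 bp outside Nfe2l2, chr2:75716261-75716585, was called in both KO libraries and neither WT library. Its peaks were 325 and 255 bp wide in KO, with folds of 3.39 and 3.34 at percentiles 18.2 and 21.0 of their lists, so it was among the weaker peaks. Of all regions near genes, 1.44% had this pattern. The median percentile over the 7 shared regions was 60.7 and 59.3 in KO and 51.5 and 57.0 in WT, so both KO libraries stood higher. The region at the median was not the same in every library. Of the 7, 1 stood higher in both KO libraries and 0 in both WT libraries.

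Keap1 had 5 regions, and 2 of them were shared by all 4 libraries. Its start region, chr9:21238587-21239379, was 793 and 699 bp wide in KO and 619 and 729 bp in WT, and the genotypes overlapped. Its fold percentile was 21.2 and 26.9 in KO and 32.8 and 28.9 in WT, so both WT libraries stood higher. The covered bases of Keap1 were 1552 and 1757 in KO and 1423 and 977 in WT, with means of 1655 ± 145 in KO and 1200 ± 315 in WT (SD, n = 2 each, exact permutation p = 0.333, adjusted p = 1 over 17107 genes). Both KO values were above both WT values, and WT replicate 2 was the lowest. That library alone lacked 2 of the 5 regions, a pattern seen for 1.65% of all regions near genes: chr9:21225122-21225399 and chr9:21237479-21237851. The difference was 129 bp between the replicates numbered 1 and 780 bp between those numbered 2. It was -274.5 bp, with KO below WT, when the weakest 25% of each list was removed.

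The small MAF genes differed from each other in how much open DNA they held. Mafg had 2 regions, both inside the gene and both called in all 4 libraries. Its larger one, chr11:120632554-120633998, was 1395 and 1422 bp wide in KO and 1398 and 1361 bp in WT, and lies over the promoter printed above. Its folds were 3.48 and 3.54 in KO and 3.08 and 3.19 in WT, at percentiles 21.0 and 26.7 in KO and 8.89 and 17.6 in WT. Both KO percentiles were above both WT ones while the widths overlapped. Peaks covered 21.8 ± 1.07% of the Mafg gene (mean and SD over all 4 libraries), more than in any of the other 7 genes.

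Mafk had 3 regions, and all 3 were called in all 4 libraries. Its start region, chr5:139791144-139791939, was 693 and 703 bp wide in KO and 601 and 583 bp in WT. The peak spans the start and the printed promoter. Its fold percentile was 65.8 and 60.7 in KO and 72.0 and 71.0 in WT, so the KO peaks were wider and stood lower in their lists. A smaller region upstream, chr5:139789569-139789838, was 269 and 257 bp wide in KO and 231 and 238 bp in WT. Here the KO peaks were both wider and higher in their lists, at percentiles 43.1 and 40.4 against 27.0 and 23.9 in WT. The third region, chr5:139793489-139793751 inside the gene, was weak, with percentiles of 5.35 and 2.37 in KO and 9.35 and 10.9 in WT. The covered bases of Mafk were 1107 and 1197 in KO and 1078 and 1024 in WT, with means of 1152 ± 63.6 in KO and 1051 ± 38.2 in WT (SD, n = 2 each, exact permutation p = 0.333, adjusted p = 1).

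Maff had 5 regions, and 4 were called in all 4 libraries. The widest, chr15:79347282-79348545, covers the second and the third start and was 1201 and 1135 bp wide in KO and 1077 and 1084 bp in WT. Its folds were 3.62 and 4.40 in KO and 4.20 and 4.37 in WT and overlapped. The region near the far boundary, chr15:79357681-79358124, was narrower but stronger, with widths of 301 and 380 bp in KO and 444 and 300 bp in WT and folds of 5.83 and 5.98 in KO and 5.79 and 6.18 in WT. The region between them, chr15:79354680-79354859, had the lowest mean percentile of the 56 shared regions, at 3.42 in KO and 1.32 in WT. The covered bases of Maff were 1878 and 1934 in KO and 1936 and 1925 in WT and overlapped.

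Bach1, whose product represses haem oxygenase and other antioxidant genes, had 14 regions, with 10 called in all 4 libraries. Its start region, chr16:87698709-87700323, held 1 peak in each KO library and 2 peaks in each WT library. The KO peaks were 1487 and 1614 bp long, with folds of 5.09 and 4.96. In WT replicate 1 the peaks were 593 and 446 bp long with folds of 6.05 and 3.43, and in WT replicate 2 they were 653 and 369 bp long with folds of 5.84 and 3.15. The WT peaks left gaps of 487 and 473 bp inside the gene, from 360 to 846 bp and from 410 to 882 bp beyond the 5′ boundary, and the KO peaks ran across both. The summed width was 1487 and 1614 bp in KO and 1039 and 1022 bp in WT, a log2 ratio of the means of 0.59 with an exact permutation p of 0.333. The difference of the means was 520 bp, and 927.5 bp once the weakest 25% of each list was dropped. That cut removed the second WT peaks, which stood at percentiles 19.8 and 16.5, so the larger value follows from the cut. The strongest peak of the region stood at percentiles 61.9 and 62.0 in KO and 80.1 and 79.4 in WT, a measure that leaves out the weaker WT peaks. The printed Bach1 promoter lies almost wholly under the KO peak and the first WT peak, outside the gap.

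Regions with 1 peak in both KO libraries and more than 1 in both WT libraries made up 0.154% of the 47917 shared regions near genes, and 0.238% (28) of 11767 shared gene-end regions. The 56 shared regions described here held 2, and the other was chr4:32189580-32190726 beyond Bach2. There the summed widths were 182 and 1135 bp in KO and 551 and 414 bp in WT and overlapped. The reverse pattern made up 0.134% of shared regions near genes and was seen at 1 of the 56, the start of Bach2.

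**Figure D2:**
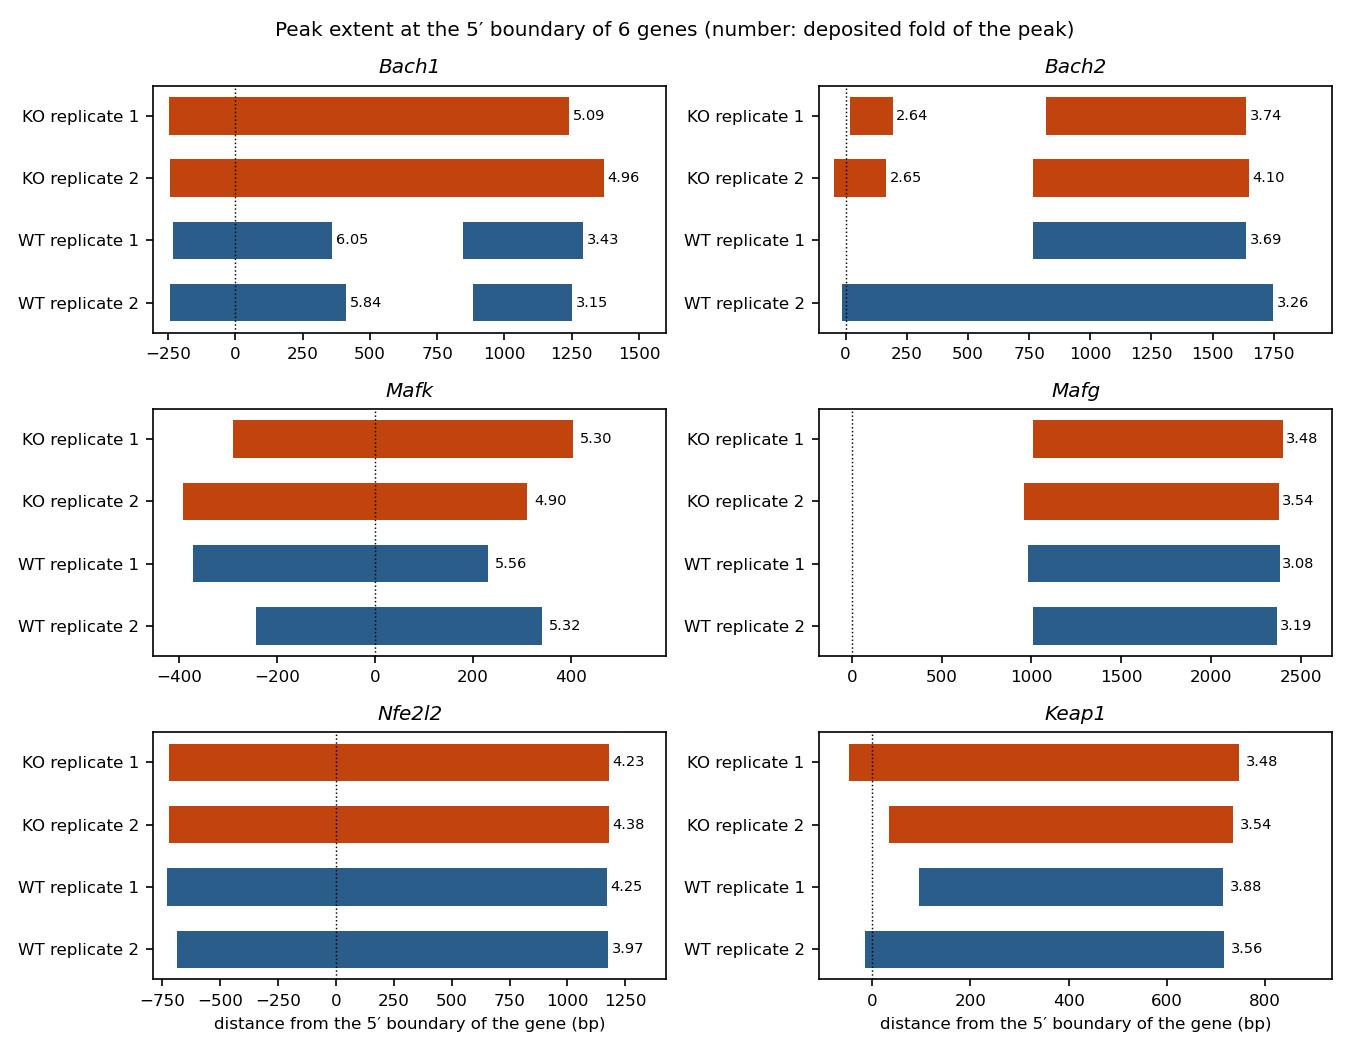
Bars show the extent of each peak in each library, as distance from the gene's 5′ boundary (bp, horizontal axis; upstream is negative), for the start regions of 6 genes, with the peak's deposited fold written beside it. KO libraries stand above WT libraries: Bach1 has 1 joined peak in each KO library and 2 peaks in each WT library, while Nfe2l2 has 1 peak of nearly the same extent in all 4.

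The strongest regions among the 84 also belonged to Bach1. At chr16:87660968-87661624, outside the gene, folds were 7.90 and 8.24 in KO and 7.58 and 7.77 in WT, ranking 3973rd and 2199th in the KO lists and 3826th and 2597th in the WT lists. At chr16:87688853-87689677 they were 7.84 and 8.41 in KO and 7.61 and 6.66 in WT. Widths and within-list percentiles overlapped between the genotypes at both of these regions. The median percentile over the 10 shared Bach1 regions was 78.3 and 80.9 in KO and 79.8 and 81.7 in WT, the highest of the 8 genes. A distal region, chr16:87746699-87747034, was narrower in KO, with 166 and 156 bp in KO and 317 and 326 bp in WT (means of 161 and 321.5 bp), and its percentiles of 82.4 and 94.1 in KO and 79.6 and 96.9 in WT overlapped.

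Inside Bach1, chr16:87716462-87716611 was called in both KO libraries and neither WT library. It was 124 and 125 bp wide, with folds of 2.95 and 3.17 at percentiles 4.50 and 15.8. Peaks covered 7.36% and 7.32% of the Bach1 gene in KO and 5.48% and 5.61% in WT, a difference that includes the start region. The covered bases over all its regions, outside ones included, were 5715 and 6217 in KO and 5086 and 5935 in WT and overlapped (exact permutation p = 0.667).

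Bach2, a repressor best known from lymphocytes, had 36 regions, of which 32 lay inside its gene of 347697 bp and 24 were called in all 4 libraries. At its start region, chr4:32238366-32240160, each KO library had 2 peaks and each WT library had 1. The summed widths were 991 and 1097 bp in KO and 871 and 1764 bp in WT and overlapped. In KO a weak peak of 176 or 214 bp, with folds of 2.64 and 2.65, lay at the boundary itself. WT replicate 1 had no peak there, and WT replicate 2 had a single peak that spanned both places.

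Among the 24 shared Bach2 regions, 3 were wider in both KO libraries and 7 in both WT libraries, beside 16.5% and 16.8% of all shared regions near genes. The percentile was higher in both KO libraries at 8 of the 24 and in both WT libraries at 4, beside 17.0% and 17.9%. Of the regions whose widths did not overlap, the largest ratio toward KO in this gene was at chr4:32373062-32373714, with 467 and 630 bp in KO and 426 and 425 bp in WT (log2 ratio 0.37). At chr4:32267911-32268359 the widths were 241 and 217 bp in KO and 395 and 357 bp in WT (log2 ratio -0.72). The same region stood higher in the KO lists, at percentiles 36.7 and 59.2 in KO and 25.99 and 7.62 in WT, the largest percentile difference of the 56 (31.2). The regions called in both WT libraries and neither KO library also belonged to Bach2. One, chr4:32206638-32206888, was 131 and 173 bp wide at percentiles 17.5 and 13.5, and the other, chr4:32560320-32560470, was 111 and 132 bp wide at percentiles 2.82 and 3.76. WT replicate 2 alone lacked 4 Bach2 regions, among them the gene-end region chr4:32586701-32586847. The covered bases of Bach2 were 11406 and 13305 in KO and 13129 and 14433 in WT, with means of 12356 ± 1343 in KO and 13781 ± 922 in WT (exact permutation p = 0.667), so the genotypes overlapped. Within the gene itself they did not overlap: peaks covered 3.07% and 3.33% of Bach2 in KO and 3.48% and 3.81% in WT.

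Maf, the c-MAF gene, had 7 regions, 4 of them called in all 4 libraries, and none overlapped the annotated gene. Its gene-end region, chr8:115706975-115708479, began 81 bp beyond the higher-coordinate boundary and was 1505 and 1358 bp wide in KO and 1451 and 1472 bp in WT. The fold percentiles were 54.6 and 52.2 in KO and 48.8 and 48.6 in WT, so both KO libraries stood higher while the widths overlapped. The farthest shared region, chr8:115742590-115743895, had widths of 625 and 1180 bp in KO and 1213 and 790 bp in WT, a spread within each genotype larger than the difference between them. The covered bases of Maf were 2740 and 3154 in KO and 3156 and 2962 in WT and overlapped (exact permutation p = 0.667).

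**Figure D3:**
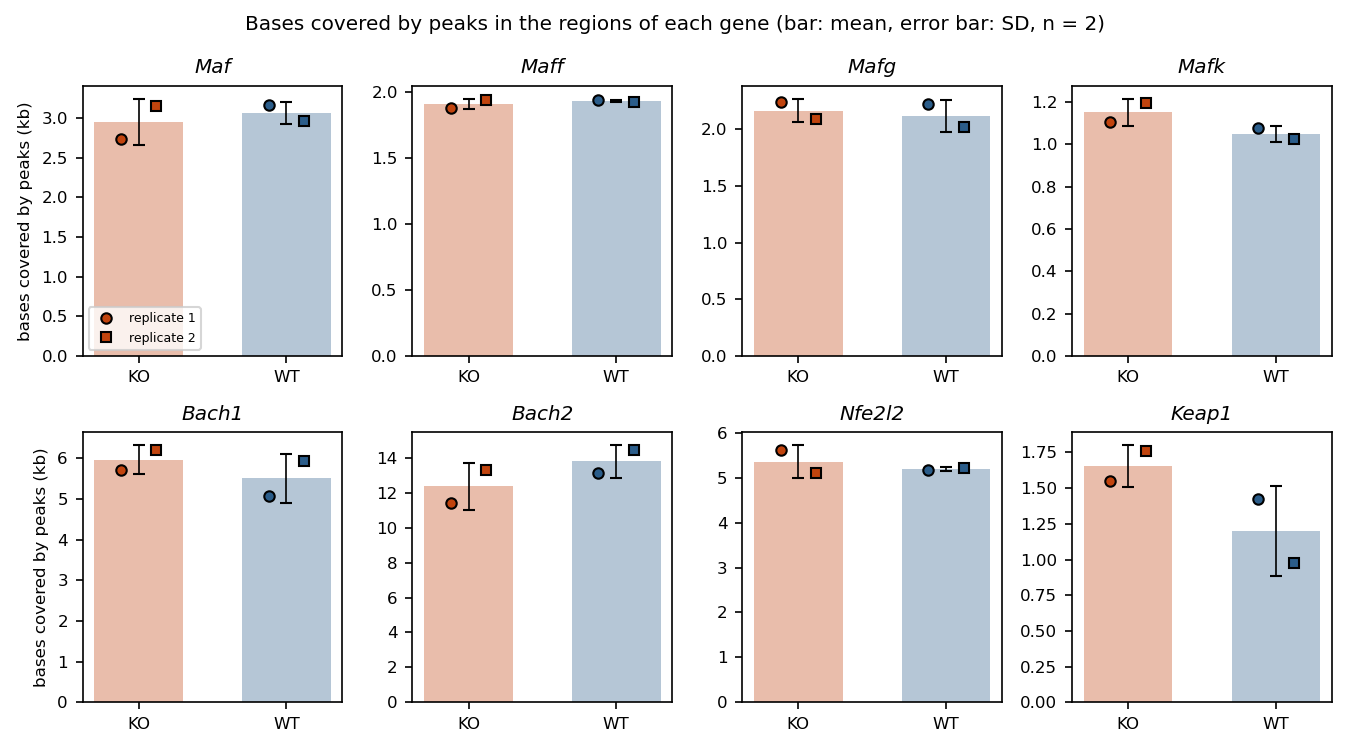
Bars give the mean number of bases covered by peaks in the regions of each gene (kb, vertical axis, starting at 0 and scaled per panel) for KO and WT, with the SD of 2 libraries, and points give each library. The genotypes do not overlap for Mafk and Keap1, where both KO libraries are higher, and overlap for the other 6 genes.

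The share of each gene covered by peaks was highest in Mafg, followed by Maff (12.9 ± 0.609%), Keap1 (12.4 ± 1.60%), Nfe2l2 (10.4 ± 0.299%), Bach1 (6.44 ± 1.04%), Mafk (4.76 ± 0.319%) and Bach2 (3.43 ± 0.308%), each as the mean and SD over 4 libraries, and it was 0 in Maf. The libraries of Keap1 overlapped those of both its neighbours in this order, Maff and Nfe2l2, and no other neighbours overlapped. Neighbours also limit the count of regions: the window of 50 kb around Maff held 17 regions, of which 12 were nearer to another gene, and that around Keap1 likewise held 17 with 12 nearer to another gene.

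Over the whole set, covered bases and peak numbers differed less between KO and WT than between replicates. Covered bases in the 84 regions were 32246 and 34751 in KO and 33193 and 34489 in WT, a difference of the means of -342.5 bp (exact permutation p = 1). The difference was -947 bp between the replicates numbered 1 and 262 bp between those numbered 2. The number of peaks was 69 and 74 in KO and 73 and 70 in WT. The median percentile of the 56 shared regions was 49.3 and 56.3 in KO and 50.5 and 50.9 in WT, a difference of the means of 2.09, and the genotypes overlapped. Mafk and Keap1 were the 2 of 8 genes with more covered bases in both KO libraries, beside 13.9% of 17107 genes, and 0 of 8 had more in both WT libraries, beside 16.5%. In 4 of 8 genes (Maf, Mafg, Mafk and Nfe2l2) the median percentile of shared regions was higher in both KO libraries, beside 15.8% of 15064 genes. It was higher in both WT libraries in 0 of 8, beside 18.6%. These medians rest on few shared regions, and not all of these went the same way. Those higher in both KO libraries were 2 of 4 in Maf, 1 of 2 in Mafg, 1 of 3 in Mafk and 1 of 7 in Nfe2l2. For Mafk the median was 41.8 ± 1.93 in KO and 25.4 ± 2.19 in WT, the largest of these differences (exact permutation p = 0.333). In each library it is the value of the region upstream of Mafk alone. The other 2 shared Mafk regions, the start region included, stood higher in both WT libraries.

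Of the 84 regions, 2 were called in both KO libraries only, beside 1.44% of all regions near genes, and 2 in both WT libraries only, beside 1.94%. Of the 56 shared regions, 13 were wider in both KO libraries (23.2%), beside 16.5% of all shared regions near genes, and 11 were wider in both WT libraries (19.6%), beside 16.8%. The percentile was higher in both KO libraries for 15 (26.8%), beside 17.0%, and in both WT libraries for 9 (16.1%), beside 17.9%. Among the 9 shared gene-end regions, 4 were wider in both KO libraries (Maff, Mafk, Bach1 and Nfe2l2), beside 17.0% of all shared gene-end regions. None was wider in both WT libraries (0 of 9), beside 14.9%. The margins of the 4 differed. For Bach1 the widths were 1487 and 1614 bp in KO and 1039 and 1022 bp in WT. For Nfe2l2 they were nearly equal, at 1901 and 1901 bp in KO and 1898 and 1861 bp in WT. The median log2 width ratio of the 56 was 0.01, and over all shared regions near genes it was -0.00, with 5th and 95th percentiles of -0.66 and 0.62.

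Combinations of width and percentile were about as frequent as over all shared regions near genes. The start regions of Bach1 and Mafk were among 3 of 56 regions (5.36%) that were wider and stood lower in both KO libraries by their strongest peak, beside 4.70% of all shared regions near genes. Another 4 (7.14%) were wider in both WT libraries and stood higher in both KO libraries, beside 4.64%. The region upstream of Mafk was the 1 (1.79%) wider and higher in both KO libraries, beside 1.80%, and 1 was wider and higher in both WT libraries, beside 2.03%. Single libraries also left gaps. WT replicate 2 alone lacked 6 of the 84 regions, all at Keap1 or Bach2, a larger share than the 1.65% over all regions near genes. KO replicate 1 alone lacked 3, beside 3.36%, and KO replicate 2 alone lacked 1, beside 1.91%. WT replicate 1 alone lacked 0, beside 2.43%.

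**Figure D4:**
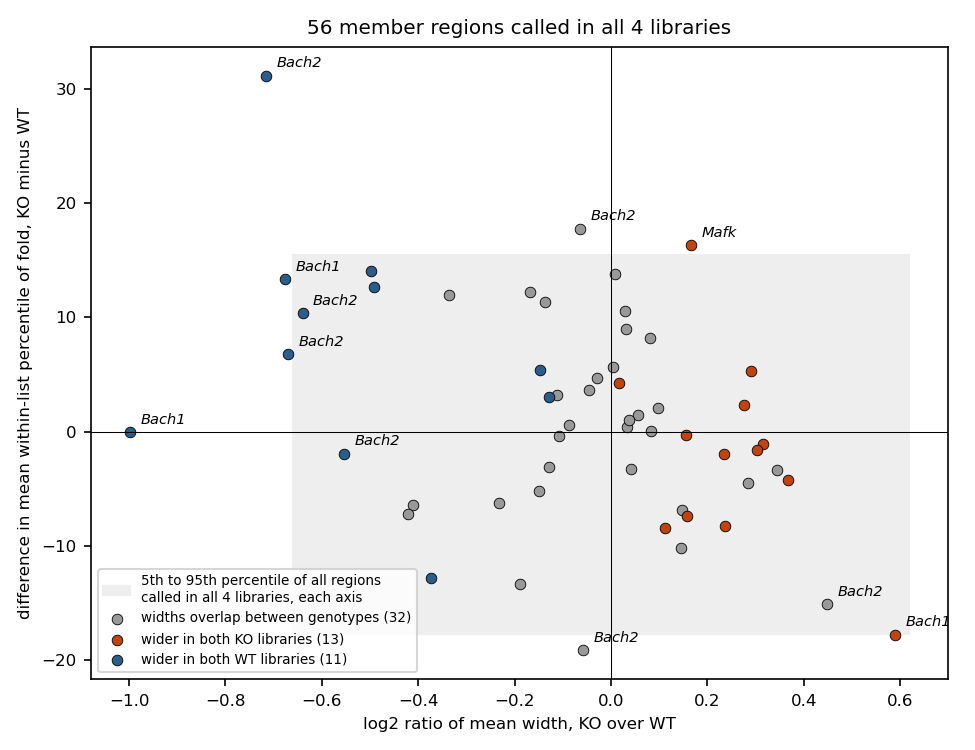
Each point is 1 of the 56 regions called in all 4 libraries, with the log2 ratio of mean width, KO over WT, on the horizontal axis and the difference in mean within-list percentile of fold, KO minus WT, on the vertical axis; the grey box spans the 5th to 95th percentile of all shared regions near genes on each axis. The start region of Bach1 stands at 0.59, wider in KO and, by its strongest peak, lower in its list, and a Bach2 region stands at -0.72 with a percentile difference of 31.2.

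Of 50 genes listed as partners, relatives or possible targets of these factors, 42 had a gene-end region in every library. This was a share of 84%, beside 54.7% of all protein-coding genes. All 4 libraries called 166 of the 230 regions of these 50 genes (72.2%), beside 59.5% of all regions near genes. The KEAP1 ligase partners and related regulators had one in 6 of 6 genes, the NADPH and sugar enzymes in 6 of 6, the haem and iron genes in 9 of 10, the glutathione and thioredoxin genes in 11 of 14, the macrophage genes tied to c-MAF or BACH factors in 6 of 8, and the CNC and large MAF relatives in 4 of 6. The 6 without a gene-end region in any library were Nrl, Hrg, Slc7a11, Gpx4, Txnrd1 and Vcam1. A gene-end region describes only the outermost annotated boundaries, and a gene can have regions elsewhere. Of the 166 shared regions, 34 were wider in both KO libraries (20.5%) and 29 in both WT libraries (17.5%), beside 16.5% and 16.8% of all shared regions near genes.

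Of the 230 regions, 3 were KO-only (1.30%), beside 1.44% of all regions near genes, and 1 was WT-only (0.435%), beside 1.94%. At 4189 bp from Il10, which encodes an anti-inflammatory cytokine, chr1:131015463-131015656 was called only in KO. Its folds were 3.45 and 3.33, at percentiles 20.1 and 20.7. At 34434 bp from Fth1, the ferritin heavy chain gene, chr19:9945902-9946166 was called only in KO. Its folds were 3.87 and 4.02, at percentiles 32.4 and 40.3. At 1532 bp from Idh1, an NADPH-producing enzyme gene, chr1:65156570-65157084 was called only in KO. Its folds were 3.10 and 2.83, at percentiles 8.85 and 4.44. Inside Slc48a1, which encodes a haem transporter, chr15:97787418-97787611 was called only in WT, with folds of 2.14 and 2.18, under the 1st percentile of both WT lists.

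The genes whose covered bases over the 4 libraries lay nearest to those of each member were found by Euclidean distance on the log2 scale. For Bach1 they were Mtus1 (0.07) and Hip1 (0.08), for Bach2 Prkce (0.16) and Arhgap26 (0.17), for Nfe2l2 Nr3c1 (0.07) and Nenf (0.09), and for Keap1 Prorp (0.19) and Rpl10 (0.21). For Maf they were Slc39a14 (0.06) and Themis2 (0.06), for Maff Siah2 (0.04) and Gart (0.06), for Mafg Xpc (0.07) and Dusp3 (0.07), and for Mafk Rnf34 (0.07) and Cidea (0.08). The distance rests on 4 values per gene and compares covered bases only. Distances of different members come from different sets of genes and are not comparable.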

How the data were processed

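Per the submitters' processing notes, reads were handled with fastp, Bowtie2 and MACS2 on mm10, without versions. The authors deposited 1 broad peak list per library, not pooled across replicates. In each deposited list the score is a whole number, the fold enrichment is the authors' ratio averaged over the peak, and −log10 p and −log10 q hold the caller's p-value and q-value, with a largest q of 0.0497. The lists skip between 261 and 322 peak numbers, so some peaks had been removed by a filter that no label describes.

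Peaks were merged at 1 bp of overlap and placed by the nearest protein-coding gene (RefSeq GRCm38.p6) within 50 kb. That table gives gene boundaries without exons, so exon, intron and UTR positions were not analysed here. Gene strand came from the RefSeq promoter table, and distances for Maf run from its higher-coordinate boundary. Groups were compared by exact two-sided permutation over libraries, with Benjamini-Hochberg adjustment over 17107 genes. Calculations used Python 3.11.15, pandas 2.3.3, numpy 2.4.6 and scipy 1.17.1 and were tested on simulated data. Named regions were those within 1 kb of a gene boundary, the widest shared region of each gene, those called in 1 genotype only, and the 2 shared regions with the largest width ratio in each direction among those whose widths did not overlap; other regions were named after their values were seen. The members and lists were chosen with earlier results of these data known. Alternatives to the merging, filters, distance and libraries are given in the closing section.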

Additional observations from a re-analysis of the deposited data

How the results depend on the processing

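No exact permutation p fell below 0.333 under any alternative, and depth is unknown, so neither a lost nor a gained peak was tested. The Bach1 start region was 520 bp wider in KO, and 927.5 bp wider once the lowest 25% or 50% of peaks by fold were dropped. Those cuts removed the second WT peaks. With 1 library left out the region was 456.5 to 583.5 bp wider in KO. Its direction could not change there because both KO widths exceed both WT widths. The differences in covered bases kept their direction for Bach1 (31 to 880 bp), Mafk (56 to 146 bp) and Bach2 (-2375 to -476 bp) with 1 library left out. For Mafk the direction could not change there, because both KO values exceed both WT values. These genes also kept their direction in the other alternatives run per gene (regions whichever gene was nearest were not). The main tests did not treat the replicate numbers as pairs. Deviations of same-numbered libraries correlated at 0.0105 for log2 width and 0.00905 for percentile over 53062 regions. A correlation over regions cannot show a shift of a whole library, so it does not settle the pairing. Peak number, covered sequence and highest fold did split by replicate number. With the replicate block total covered bases differed by -342.5 bp as before, and the sign-flip p cannot go below 0.5.

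Counts of regions (of 84, or 56 shared), the total difference (-342.5 bp) and the median percentile difference (2.09) moved more. The number of regions moved too, so counts are not shares. Leaving out a library leaves fewer values to overlap, and the cuts by fold removed some peaks from some libraries only. Other causes were not tested. With peaks required to cover 50% of a region, 4 of 84 regions were WT-only and 6 of 45 shared were wider in both WT. With the weakest 25% of each list removed, 0 of 58 regions were KO-only, 1 was WT-only, and the percentile was higher in both KO at 9 of 41. The median percentile difference was -1.24. Covered bases (KO minus WT) were 461 in total, -216 for Nfe2l2, -274.5 for Keap1 and 711 for Mafg (46.5 with all peaks). At that cut the only Mafg peak left was that of 1422 bp in KO replicate 2. The Keap1 start peak of KO replicate 1 (793 bp) fell below the cut. With the weakest 50% removed, 1 of 40 regions was WT-only. Of 21 shared, 6 were wider in both KO and 3 in both WT. The percentile was higher in both KO at 2 and in both WT at 3. The median percentile difference was -1.29. Covered bases were 1328.5 in total, 1527.5 for Maf and -573.5 for Maff (-24.5 with all peaks). With q at most 0.01, 1 of 77 regions was WT-only. Within 20 kb, 1 of 70 was WT-only and the Maf difference was 40 bp. With regions overlapping the gene only, 1 of 52 was KO-only and 1 WT-only. The percentile was higher in both KO at 9 of 40. The median percentile difference was -0.73, and the differences for Maff and Nfe2l2 were 64.5 and -34 bp. Taking regions whichever gene was nearest, chosen after seeing the data, 5 of 137 were KO-only. Of 90 shared, 24 were wider in both KO, the percentile was higher in both WT at 18, and the total difference was 1312 bp. As a percentage of the library's covered bases, the total differed by 0.000823 and Maff by 3.26e-05. On that scale Bach1 and Bach2, which overlapped in bases, did not overlap. Bach1 held 0.0214 and 0.0208 in KO and 0.0184 and 0.0199 in WT. Bach2 held 0.0428 and 0.0445 in KO and 0.0474 and 0.0484 in WT.

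With 1 library left out, 3 to 8 of 81 to 82 regions were KO-only and 3 to 6 WT-only. Of 56 to 62 shared regions, 20 to 24 were wider in KO and 15 to 21 in WT. The percentile was higher in KO at 18 to 28 and in WT at 10 to 21. The total difference ran from -1595 to 910 bp (910 without KO replicate 1, 305.5 without WT replicate 2). The median percentile difference ran from -1.51 (without KO replicate 2) to 7.03, and the difference in peak number from -2.5 to 2.5. Per gene the range was -319 to 95 bp for Maf, -52.5 to 3.5 for Maff, -54.5 to 147.5 for Mafg, -95 to 419 for Nfe2l2 and 231.5 to 677.5 for Keap1. For Keap1, as for Mafk, the direction could not change. Maf with only regions overlapping the gene, and Keap1 and Mafg with the weakest 50% removed, gave no value.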
